A study of Glycine max with 12 samples.

Results

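The response of soybean roots to excess manganese (Mn) was followed in the plant material labelled W, in 6 of the 12 RNA-seq libraries of the study. W roots given 50 µM MnSO4 made up 3 libraries, replicates 1, 2 and 3. W roots given 5 µM MnSO4, the control supply, made up the other 3, replicates 2, 3 and 4. The remaining 6 libraries came from roots of a second material, OX3, given 50 µM MnSO4 (replicates 2, 3 and 4) or 5 µM MnSO4 (replicates 2, 3 and 4), and they entered the statistical model and served as a comparison. The authors' tables head W columns WT and OX3 columns OX, and what either name stands for, the age of the plants and the length of the treatment are not stated in the sources used here. The labels name whole roots as the tissue and do not tell whether the 3 libraries of a group stem from different plants, and the p-values cover only how far these libraries spread, which may be technical.

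Manganese is a micronutrient that plants need for the water-splitting complex of photosynthesis and as the cofactor of a mitochondrial superoxide dismutase, among other enzymes. Roots take it up through metal transporters of the plasma membrane, some of which also carry iron. In excess, as on acid or waterlogged soils, it becomes toxic, and plants are known to store it in vacuoles, bind it to organic acids and limit its movement to the shoot. The deposited tables name genes by identifiers such as Glyma.12G172300 and pair them with no product, and none could be matched to a gene name (0 matched of the 59048 genes in the reference table). Genes are therefore given without a function, and markers of root cell types, or of any of these Mn pathways, could not be looked up. In such an identifier the digits ahead of the G name the chromosome, and those behind it follow the gene order along it.

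The 3 W libraries at 50 µM held 17902303, 15426149 and 16620195 counts, and the 3 W controls 18418299, 16310095 and 16586068. A W library detected 34494 to 36706 genes with 1 or more counts, and its 20 most abundant genes held 5.74% to 9.07% of the counts. Levels are CPM, counts relative to the library total, scaled by TMM, a factor that corrects each total for differences in library composition. The factor was between 0.859 and 1.21 in W, the highest being that of control replicate 2.

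Control replicate 2 stood apart from the other W controls. Across genes, which are not independent replicates, the libraries at 50 µM correlated with one another at r between 0.933 and 0.946. Control replicates 3 and 4 correlated at 0.954, and control replicate 2 at 0.911 with replicate 3 and 0.910 with replicate 4. Control replicate 2 was more than 2-fold from the mean of the other controls in 7177 genes, with 4623 above and 2554 below. For control replicate 3 the number was 5354, with 1214 above and 4140 below, and for control replicate 4 it was 4131.

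Along the first principal component of the 6 W libraries, which held 40.6% of the variance, replicates 1, 2 and 3 at 50 µM lay at 37.8, 61 and 98.5. Control replicates 2, 3 and 4 lay at -122.8, -62.7 and -11.7, so that control replicate 4 was the nearest control to the libraries at 50 µM. The second component, with 25.8%, set control replicate 2 at 75.6 and control replicate 3 at -108.4, at opposite ends, with the libraries at 50 µM at 47.3, 29 and -14.3. Control replicate 4 correlated across genes with the libraries at 50 µM at 0.950, 0.943 and 0.924, against 0.954 with control replicate 3, while control replicate 2 did so at 0.889, 0.869 and 0.842. What the controls differ in was not tested.

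One gene passed the test of 50 against 5 µM in W. Glyma.12G172300, a gene of 976 bp on chromosome 12, rose about 4.26-fold under excess Mn. It was the 1 gene of 31841 tested (0.00314%) with an adjusted p under 0.05. Its level was 19, 19.6 and 17.3 CPM in W roots at 50 µM, against 3.94, 4.49 and 4.7 CPM in W roots at 5 µM. The lowest library at 50 µM thus lay far above the highest control, and each group was tight, with 18.6 ± 1.18 CPM at 50 µM and 4.38 ± 0.392 CPM at 5 µM (SD, n = 3 each). The log2 fold change, 50 over 5 µM, was 2.09 (SE 0.19), and edgeR's quasi-likelihood test gave it an adjusted p of 0.00682. These levels rest on 328, 270 and 247 counts at 50 µM and on 88, 63 and 72 counts at 5 µM.

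The size of that change was about the same without control replicate 2, while the call was lost without any one of 5 of the 6 W libraries. Without control replicate 2 the log2 fold change of Glyma.12G172300 was 2.01 (SE 0.22) and its adjusted p in edgeR's test 0.0753, the smallest of any gene. It was 0.0739 without control replicate 3, 0.075 without control replicate 4, 0.064 without replicate 1 and 0.0571 without replicate 2 at 50 µM, and 0.0347 without replicate 3 at 50 µM. In a fit of the 2 W groups alone its adjusted p was 0.0682. In OX3 the same gene did not follow. It had 6.33, 7.38 and 5.58 CPM in OX3 roots at 50 µM, against 8.9, 9.02 and 7.95 CPM in OX3 roots at 5 µM, so that every OX3 library at 50 µM lay below every OX3 control. Subtracting the W response from the OX3 response left -2.51 on the log2 scale (SE 0.27). The interaction in edgeR had an adjusted p of 0.0293, and this was the 1 gene of all tested (0.00314%) past the threshold there. Without any one library that adjusted p lay between 0.0745 and 0.207, and without the filter on low counts it was 0.0501.

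Short of the adjusted threshold, many genes differed between these libraries, and none of them can be called by this test. At an unadjusted p under 0.05, 2696 genes (8.47% of those tested) were higher at 50 µM and 3235 (10.2%) were lower. Together these were 5931, where about 1592 would be expected at that p if no gene differed. The libraries of the 2 groups did not overlap for 3608 genes (11.3%) with all 3 libraries at 50 µM above the controls, and for 4129 genes (13%) with all 3 below. Groups of 3 libraries also separate by chance in some genes, and that share was not computed. Higher values reached further than lower ones: 790 genes were more than 4-fold higher and 266 more than 4-fold lower, and beyond 16-fold the numbers were 125 and 13. Among genes at an unadjusted p under 0.05 the median log2 fold change was 1.22 for the higher and -0.89 for the lower genes, while over all tested genes it was -0.02. DESeq2, the other count model tried, called 824 genes higher (2.76% of those with an adjusted p) and 792 lower (2.65%) at an adjusted p under 0.05. The W groups did not overlap in 1567 of these 1616. The calls were made on the same W values, so this is no separate support for them.

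**Figure D1:**
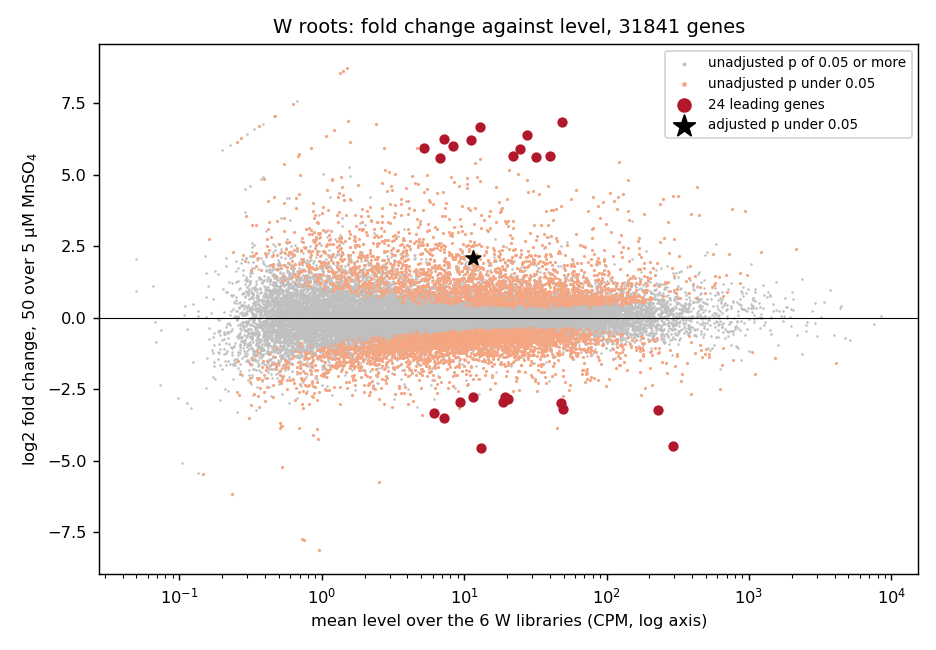
Log2 fold change, 50 over 5 µM MnSO4, of each of the 31841 tested genes in W roots (vertical axis) against its mean level over the 6 W libraries in CPM (horizontal log axis). Orange points had an unadjusted p under 0.05, red points are the 24 leading genes, and the star is Glyma.12G172300, the 1 gene past the adjusted threshold; the leading higher genes lie between 5.61 and 6.87 and the leading lower genes between -4.54 and -2.77.

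The leading genes of the response were taken as the 12 largest fold changes in each direction among genes with an unadjusted p under 0.01, a mean of at least 5 CPM over the 6 W libraries and no overlap between the groups. That rule was met by 547 genes (1.72%) on the higher side and 779 (2.45%) on the lower side. The values below describe genes chosen for these same values, and none of the 24 had an adjusted p under 0.05 in edgeR's test. The 12 higher genes had log2 fold changes between 5.61 and 6.87, with a median of 5.98, and the 12 lower genes between -4.54 and -2.77, with a median of -3.08. Their adjusted p lay between 0.162 and 0.168 on the higher side and between 0.162 and 0.166 on the lower side.

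The largest value on the higher side belonged to Glyma.09G061500, a gene of 1792 bp on chromosome 9. It had 60.9, 75.9 and 151 CPM in W roots at 50 µM, against 0.314, 0.641 and 1.57 CPM in W roots at 5 µM. All 3 controls were close to 0 and all 3 libraries at 50 µM far above them, its log2 fold change being 6.87 (SE 1.39) at an edgeR adjusted p of 0.162. Its level in OX3 was 26.3, 114.5 and 0.67 CPM at 50 µM, against 1.28, 0.579 and 1.22 CPM at 5 µM. OX3 replicates 2 and 3 at 50 µM were thus high as in W, whereas OX3 replicate 4 at 50 µM was at the level of the controls.

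Second was Glyma.14G063700, a gene of 711 bp on chromosome 14. It had 40.1, 1.89 and 35.3 CPM in W roots at 50 µM, against 0, 0 and 0.783 CPM in W roots at 5 µM. Replicates 1 and 3 at 50 µM were high, and replicate 2 was only a little above control replicate 4. The log2 fold change was 6.68 (SE 1.79), at an edgeR adjusted p of 0.166, and its size depends on controls that held 12 counts together, all of them in replicate 4. The gene next to it in the numbering came after it in rank, with 80.9, 4.71 and 77.4 CPM at 50 µM against 0.0896, 0.143 and 1.76 CPM at 5 µM, so that the pair shared the order of the libraries. Another 2 of the 12 were neighbours on chromosome 7, in all 2 pairs within 2 steps of the numbering, while the lower side held 0 such pairs. How the authors' counting divided reads between similar neighbouring genes is not stated in the sources used here.

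The libraries of a group also differed from one another over the higher set as a whole. In W roots at 50 µM the median level of the 12 genes was 22.7 CPM in replicate 1, 5.29 CPM in replicate 2 and 45.8 CPM in replicate 3. In the controls it was 0.0448 CPM in replicate 2, 0.107 CPM in replicate 3 and 1.21 CPM in replicate 4. Replicate 2 was the lowest library at 50 µM in 8 of the 12 genes, and control replicate 4 the nearest control in 12 of 12. Control replicate 2 held 0 counts for 5 of the 12 genes and control replicate 3 for 4, so fold changes of these genes rest in part on the few counts of control replicate 4 and on the prior count of the fit. Without control replicate 4 the median log2 fold change of the 12 was 8.46.

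The other higher genes differed in how steady they were among the libraries at 50 µM. The eighth in rank, on chromosome 1, had 59.9, 49 and 37.6 CPM in W roots at 50 µM, against 0.0448, 0.356 and 2.15 CPM at 5 µM. The sixth, on chromosome 13, had 3.07, 44 and 1.96 CPM at 50 µM, against 0.0448, 0.0713 and 0.653 CPM at 5 µM. In the sixth a single library, replicate 2, carried most of the level at 50 µM, and it was the 1 gene of the 12 with its highest value there; replicate 3 was highest in 7 and replicate 1 in 4.

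**Figure D2:**
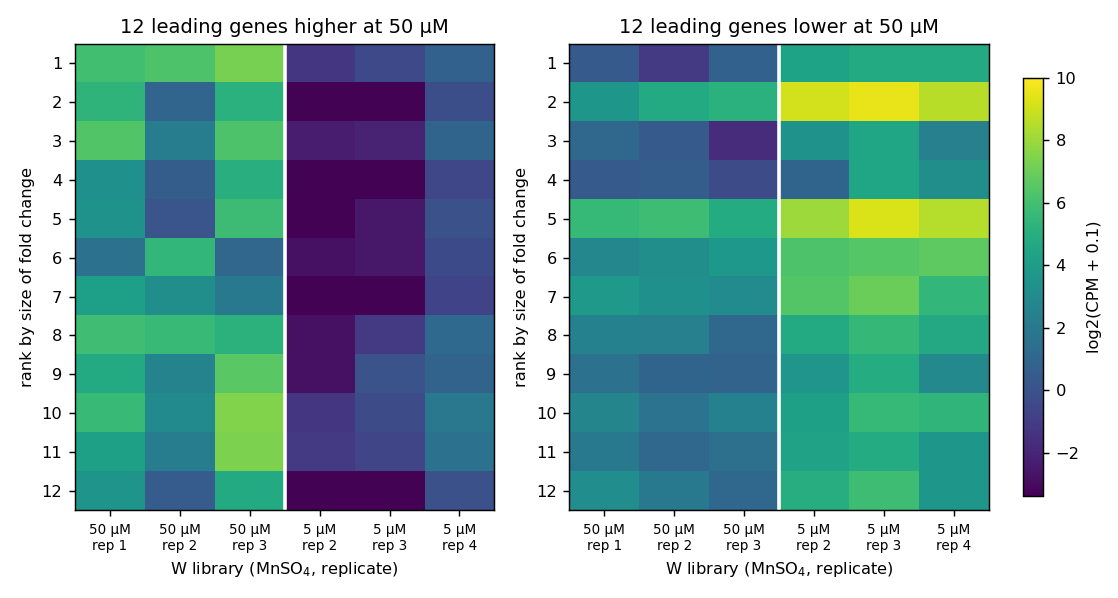
Level of each leading gene in each W library, as log2(CPM + 0.1) (colour), with the 12 genes higher at 50 µM on the left and the 12 lower at 50 µM on the right; rows follow the size of the fold change and columns are libraries, 50 µM left of the white line and 5 µM right of it. On the left, replicate 2 at 50 µM is the darkest of its group in 8 of the 12 rows and control replicate 4 the brightest control in 12 of 12; on the right, 5 µM replicate 3 is the highest control in 10 of the 12 rows.

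On the lower side the leading gene was Glyma.10G047100, of 1227 bp on chromosome 10. It had 1.22, 0.363 and 1.61 CPM in W roots at 50 µM, against 20.3, 27.6 and 27.6 CPM in W roots at 5 µM. The controls agreed closely with one another and no library at 50 µM came near them, its log2 fold change being -4.54 (SE 0.76) at an edgeR adjusted p of 0.162. In OX3 it had 8.74, 7.93 and 51.9 CPM at 50 µM, against 39.5, 58.9 and 39.2 CPM at 5 µM, and the OX3 groups overlapped because of replicate 4 at 50 µM.

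The second, Glyma.15G264300, of 1272 bp on chromosome 15, was among the abundant genes of control roots. It had 12.8, 28.1 and 35.3 CPM in W roots at 50 µM, against 550, 762 and 375 CPM in W roots at 5 µM. Its log2 fold change was -4.47 (SE 0.83), at an edgeR adjusted p of 0.162. In OX3 its level was 395, 492 and 2904 CPM at 50 µM, against 2294, 2625 and 1112 CPM at 5 µM, again with replicate 4 at 50 µM high and overlapping the controls. Even the lowest of these OX3 libraries lay above the lowest W control.

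The lower set had smaller fold changes and higher counts behind its controls. The median level of its 12 genes at 50 µM was 5.92 CPM in replicate 1, 3.55 CPM in replicate 2 and 2.42 CPM in replicate 3. At 5 µM it was 24 CPM in replicate 2, 46.3 CPM in replicate 3 and 26.7 CPM in replicate 4. Control replicate 3 was the farthest control in 10 of the 12 genes, and 0 of the 12 had a control without counts. The fourth in rank, on chromosome 12, was the one nearest to overlapping, with 1.22, 1.38 and 0.701 CPM at 50 µM against 1.79, 22.6 and 9.07 CPM at 5 µM. In that gene control replicate 2 sat beside the libraries at 50 µM.

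The fold changes and the overlap that chose these genes came from the W libraries, but their p-values came from the model of all 12, so the OX3 libraries entered the choice through the filter and the shared spread. All 12 higher genes were also higher at 50 µM in OX3, with log2 fold changes between 3.23 and 7.86 and a median of 6.10, against a median of -0.03 over all genes in OX3. Of these, 11 had an unadjusted p under 0.05 in OX3, where 7.22% of all tested genes were higher at that p. For all 12 the level in OX3 replicate 4 at 50 µM lay nearer to the OX3 controls than to OX3 replicates 2 and 3 at 50 µM. Of the 12 lower genes 11 were also lower at 50 µM in OX3, with log2 fold changes between -3.31 and 0.34 and a median of -0.77, and 1 had an unadjusted p under 0.05, a share close to the 7.78% of all genes that were lower at that p. OX3 replicate 4 at 50 µM was nearer to the OX3 controls in 10 of these 12. The difference between the OX3 and W responses had an unadjusted p under 0.05 for 0 of the 12 higher and 8 of the 12 lower genes, against 7.55% of all genes, but the W values that chose the genes enter this difference. For this difference edgeR gave adjusted p between 0.648 and 0.986 for the lower genes and between 0.763 and 0.993 for the higher genes.

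The genes with the smallest p at a mean of at least 5 CPM gave smaller but tighter differences than those leading by size. Glyma.18G118300, of 980 bp on chromosome 18, followed Glyma.12G172300 on the higher side. It had 12.6, 9.21 and 13 CPM in W roots at 50 µM, against 1.16, 1.07 and 1.83 CPM in W roots at 5 µM. The log2 fold change was 3.09 (SE 0.44), with an unadjusted p of 1.56e-05 and an edgeR adjusted p of 0.162. In OX3 it had 7.11, 9.24 and 2.73 CPM at 50 µM, against 0.662, 0.434 and 0.713 CPM at 5 µM. In both materials all 3 libraries at 50 µM lay above all 3 controls.

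On the lower side Glyma.11G192400, of 1670 bp on chromosome 11, had the smallest p. It had 2.15, 2.68 and 2.38 CPM in W roots at 50 µM, against 15.1, 10.1 and 8.62 CPM in W roots at 5 µM. The libraries at 50 µM were close together and the log2 fold change was -2.23 (SE 0.31), with an unadjusted p of 1.18e-05 and an edgeR adjusted p of 0.162. In OX3 it had 13.1, 15.8 and 18.8 CPM at 50 µM, against 35.4, 41.3 and 21.1 CPM at 5 µM. Glyma.18G287100, of 3152 bp on chromosome 18, was next, with 13.2, 11.8 and 11.7 CPM in W roots at 50 µM, against 32.2, 41 and 27.5 CPM in W roots at 5 µM. Its log2 fold change was -1.45 (SE 0.23), at an edgeR adjusted p of 0.162, and its OX3 levels were 10.3, 14.3 and 16 CPM at 50 µM against 19.7, 25 and 18.2 CPM at 5 µM.

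**Figure D3:**
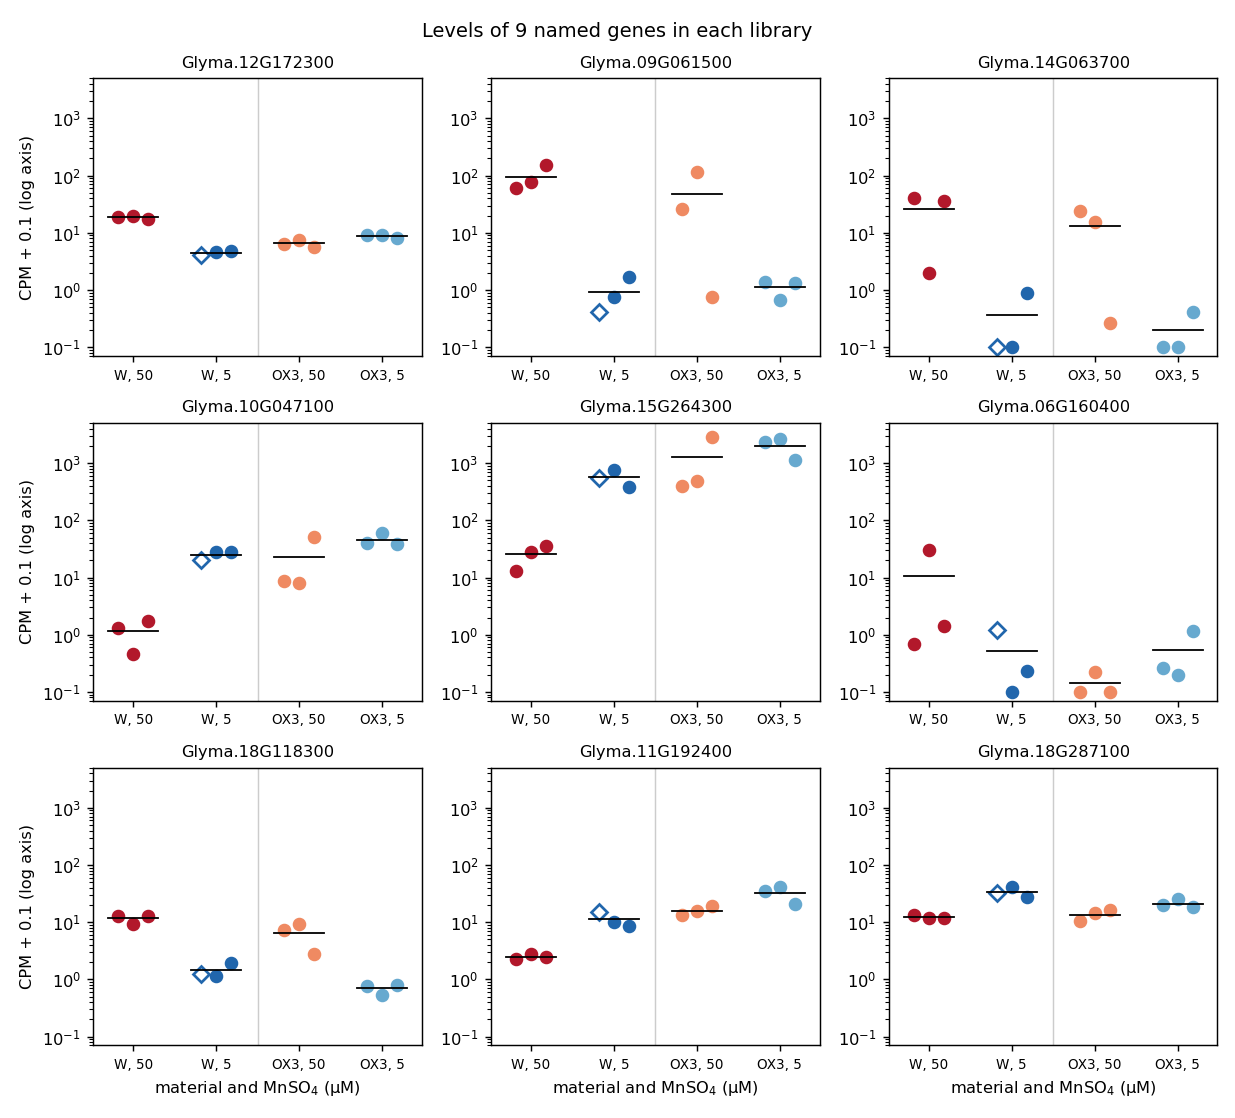
Level of 9 genes in each of the 12 libraries, as CPM + 0.1 on a log axis; each point is a library, each line the mean of its 3 libraries, and the open diamond is W control replicate 2. Glyma.12G172300 separates the W groups (18.6 against 4.38 CPM on average) and not the OX3 groups in the same direction, while in several other panels 1 OX3 library at 50 µM lies at the level of the OX3 controls.

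The size of the Mn difference depended on the control it was measured against. The mean of the libraries at 50 µM was more than 2-fold above control replicate 2 in 3988 genes and more than 2-fold below it in 4680. Against control replicate 3 the numbers were 5258 above and 2540 below, and against control replicate 4 they were 2738 above and 1237 below. Among the 2696 genes higher at an unadjusted p under 0.05, control replicate 4 was nearest to the libraries at 50 µM in 62.6%. The farthest control was replicate 2 in 49% and replicate 3 in 38.6%. Among the 3235 lower genes control replicate 4 was nearest in 57.6%. There the farthest was control replicate 2 in 48.5% and control replicate 3 in 45.7%.

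Leaving out control replicate 2 changed which genes led, above all on the higher side. The genes already leading were chosen for no overlap with any W control, so without control replicate 2 their direction could hardly change. Without that library DESeq2 called 584 genes at an adjusted p under 0.05, or 1.97% of the 29690 to which it gave one. In edgeR's fit, of 32266 genes, 0 genes had an adjusted p under 0.05. At an unadjusted p under 0.05, 2394 genes (7.42%) were higher and 2415 (7.48%) lower. Of the 2696 genes higher with all controls, 1517 (56.3%) were also higher at that p without control replicate 2, and of the 3235 lower genes 1964 (60.7%). Among genes tested in both fits, 827 higher and 443 lower genes reached it only without that library, and 9 genes at that p with all controls had the opposite sign. The spread of fold changes grew on the higher side, with 1435 genes more than 4-fold higher and 191 more than 4-fold lower, and 283 and 6 beyond 16-fold. The median log2 fold change over all genes moved to 0.03.

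The lower leading genes held their place without control replicate 2, and the higher ones did not. By the same rule applied to the 5 remaining W libraries, 264 higher genes (0.829%) and 516 lower genes (1.62%) qualified. The 12 leading lower genes with all controls all met it again, 10 of them in the new 12, and their median log2 fold change was -3.22. Of the 12 leading higher genes 3 met it again and all 3 were in the new 12. Each of the higher 12 still had an unadjusted p under 0.05, but between 0.00255 and 0.0245, which put 9 of them past the 0.01 of the rule. Control replicate 2 had been their farthest control in 8 of the 12 and level with control replicate 3, at 0 counts, in the other 4, and without it their log2 fold changes were between 4.92 and 6.42, with a median of 5.34. Glyma.09G061500 had 6.42 (SE 1.64) without it, Glyma.14G063700 5.98, Glyma.10G047100 -4.68 (SE 0.82) and Glyma.15G264300 -4.50 (SE 0.89).

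The new leading higher gene without control replicate 2 was Glyma.06G160400, of 642 bp on chromosome 6. It had 0.58, 30 and 1.33 CPM in W roots at 50 µM, against 1.12, 0 and 0.131 CPM in W roots at 5 µM, where the 1.12 CPM was that of control replicate 2. With that control the groups overlapped, and the level at 50 µM came almost entirely from replicate 2. Its log2 fold change was 7.14 (SE 2.19) without control replicate 2 and 4.52 (SE 1.56) with it, and the adjusted p in edgeR's test was 0.289 and 0.189. Control replicate 2 overlapped the libraries at 50 µM in 4 of the new 12 higher genes and was the nearest control in 6, and replicate 2 at 50 µM was the highest library in 6. On the lower side control replicate 2 overlapped in 0 of the new 12.

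**Figure D4:**
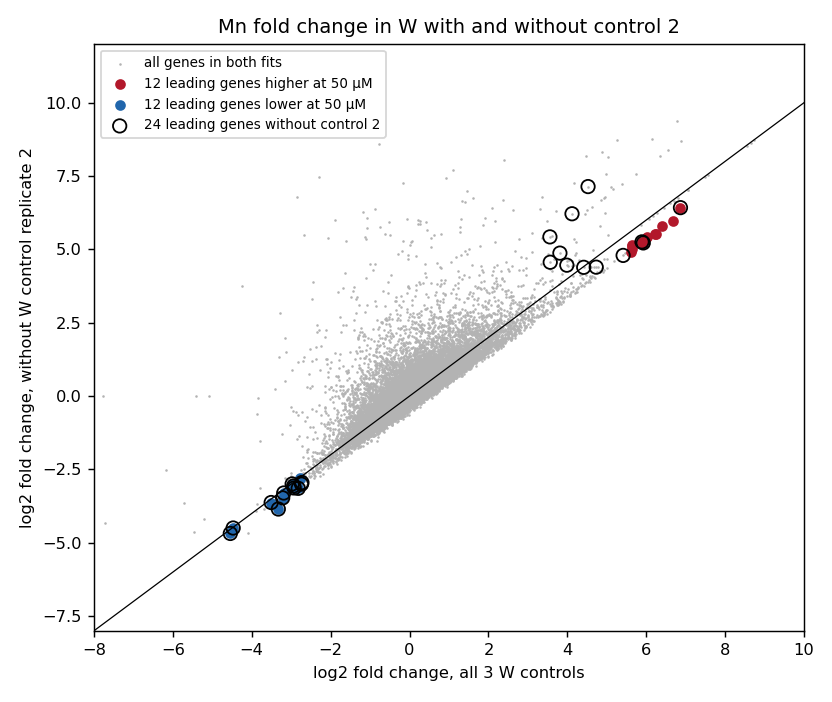
Log2 fold change, 50 over 5 µM MnSO4, of each gene in W without control replicate 2 (vertical axis) against that with all 3 controls (horizontal axis); the line marks equal values, filled points are the 24 leading genes with all controls and open circles the 24 leading genes without control replicate 2. The lower leading genes lie near the line with both marks on 10 of 12, whereas the higher ones lie below it and only 3 of 12 carry both marks.

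Fold changes followed the length of the gene. In the shortest of 4 equal classes of tested genes, of 169 to 1334 bp, 16.2% were higher and 3.79% lower at an unadjusted p under 0.05, with a median log2 fold change of 0.25. In the longest class, of 2575 to 16968 bp, 3.42% were higher and 20.5% lower, with a median of -0.28. The median length was 1364.5 bp for the higher genes and 2597 bp for the lower genes, against 1884 bp for all tested. Without control replicate 2 the shares were 12% higher and 3.59% lower in the shortest class and 3.83% higher and 12.4% lower in the longest.

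The trend was present in every W library. Taking each library's deviation from the mean of the 6, the median of the longest class minus that of the shortest was -0.23, -0.14 and -0.42 on the log2 scale for replicates 1, 2 and 3 at 50 µM. It was 0.50, 0.14 and 0.14 for control replicates 2, 3 and 4. Every library at 50 µM lay below every control, and control replicate 2 and replicate 3 at 50 µM, the libraries at the ends of the first principal component, were the 2 extremes. The leading genes of both directions were short, with a median of 996 bp for the higher and 1252.5 bp for the lower ones, against the 1884 bp of all genes. The trend was then removed from every library, a step chosen after the data were seen. In that fit Glyma.12G172300, a gene of the shortest class, had a log2 fold change of 1.85, against 2.09 without the step. Its edgeR adjusted p was 0.0196, against 0.00682, and it was 0.216 when control replicate 2 was also left out. With all W controls and the trend removed, the leading genes had median log2 fold changes of 5.82 and -3.21. There 2340 genes were higher and 2431 lower at an unadjusted p under 0.05, against 2696 and 3235 without the step.

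**Figure D5:**
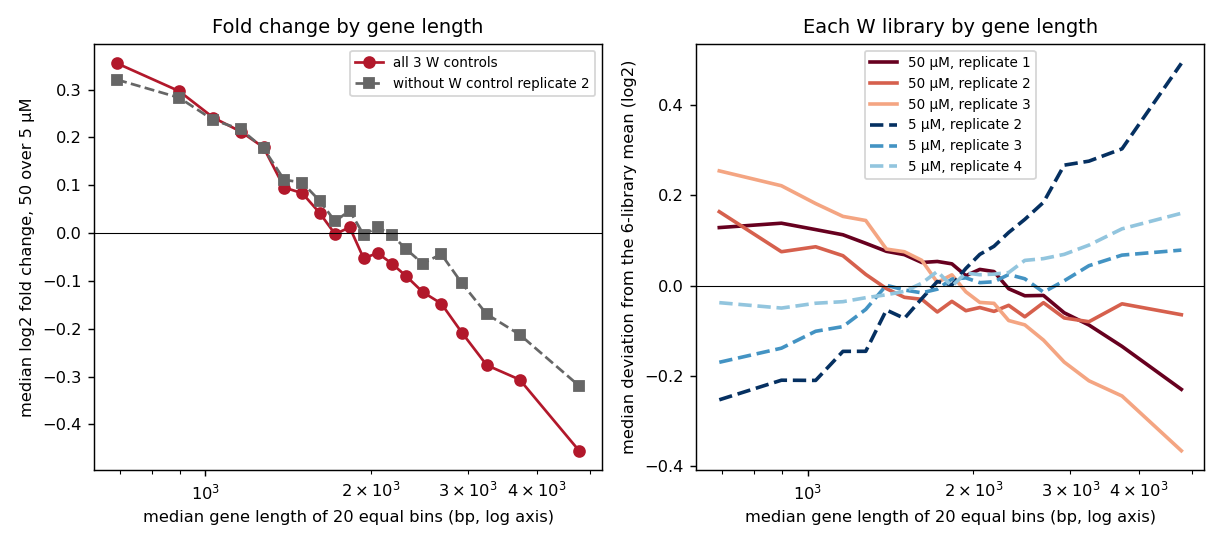
Left, the median log2 fold change, 50 over 5 µM MnSO4, of tested genes in 20 bins of equal size ordered by length (log axis, bp), with all 3 W controls (circles) and without control replicate 2 (squares). Right, the median deviation of each W library from the mean of the 6 in the same bins, 50 µM solid and 5 µM dashed; the 3 libraries at 50 µM fall with length and the 3 controls rise, control replicate 2 the most.

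Genes at an unadjusted p under 0.05 lay on all chromosomes and at all levels of expression. By chromosome, the share of tested genes higher at an unadjusted p under 0.05 ranged from 7.02% on chromosome 12 to 10.2% on chromosome 4, and the share lower from 9.19% on chromosome 18 to 11.9% on chromosome 20. Of 590 genes more than 2-fold higher and 605 more than 2-fold lower at an unadjusted p under 0.01, 25 pairs next to each other in the order of tested genes were both higher and 21 both lower, while 12 pairs went opposite ways. The 1 run of 3 such genes lay on chromosome 7 and was higher at 50 µM, and its last member was the fifth of the leading higher genes. The number of such pairs in a random order of genes was not computed. Whether neighbours changed together thus cannot be read from these counts. By level, 11.6% of genes over 100 CPM were higher and 5.22% lower at an unadjusted p under 0.05. Between 5 and 20 CPM 8.27% were higher and 13.7% lower, and under 1 CPM 4.61% were higher and 4.16% lower. Without control replicate 2 this balance turned over 100 CPM, where 6.04% were higher and 7.52% lower. In that fit 6.99% were higher and 9.97% lower between 5 and 20 CPM, and 7.67% higher and 2.23% lower under 1 CPM.

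The most abundant root transcripts gave no share that can be read apart from that of all genes. Of the 20 with the highest mean in W, 0 were higher and 1 was lower at an unadjusted p under 0.05, where 8.47% of all tested genes were higher and 10.2% lower, and the median log2 fold change of the 20 was -0.15. The lower one was Glyma.17G147500, named after its values were seen, with 2058, 2429 and 1698 CPM in W roots at 50 µM, against 3943, 7966 and 6312 CPM in W roots at 5 µM. Its groups did not overlap, with a log2 fold change of -1.56 and an edgeR adjusted p of 0.247. The largest positive value, 1.37, was that of Glyma.18G011600, also named after its values were seen. It had 3921, 3894 and 2414 CPM at 50 µM, against 237, 1098 and 2636 CPM at 5 µM, where control replicate 2 was the low one and control replicate 4 overlapped the libraries at 50 µM.

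A few genes had counts in only one of the W groups. With at least 1 count in every W library at 50 µM, 10 genes of the 31841 tested had 0 counts in all 3 W controls, and their counts in W at 50 µM summed to between 22 and 136. The one with most, Glyma.01G096200, had 86, 2 and 48 counts in W roots at 50 µM and was at least 51.7-fold higher there, with 3 counts over the group as the floor for the controls. The next, Glyma.02G252800, had 21, 9 and 103 counts and was at least 50.6-fold higher. In OX3 the counts of some of the 10 did not follow the Mn supply. OX3 replicate 4 at 5 µM held 119 counts of Glyma.11G148700, 86 of Glyma.12G069900, 54 of Glyma.03G257500 and 36 of Glyma.04G160000. It held 0 to 17 counts of each of the rest. In the other direction, 2 genes with counts in every W control had 0 counts in W at 50 µM. Glyma.06G070900 had 91, 3 and 1 counts in control replicates 2, 3 and 4 and was at least 27.7-fold lower at 50 µM, a value that control replicate 2 decided. Glyma.12G084000 had 12, 4 and 1 counts and was at least 4.97-fold lower. The genes of this paragraph were named after their values were seen, none of the 12 passed the adjusted threshold in edgeR's test, and the bounds cover counting error only. In RNA from whole roots, fewer cells of a type and less RNA per cell cannot be told apart in any of these values.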

How the data were processed

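Per the labels' protocols, root RNA came from Trizol extraction and sequencing libraries from the VAHTS Universal V6 kit. The authors deposited read counts per gene for 43517 genes and FPKM for 40214 genes. The submitters' processing notes list HTSeq 0.6.0, HISAT2 2.1.0, Bowtie2 2.2.3, CASAVA and TopHat2 without their roles; strand use in counting is not stated in the sources used here. Gene lengths were recovered from counts and FPKM and were whole to within 1.8e-12 bp.

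Groups and replicate numbers came from the sample titles. After TMM scaling and filterByExpr, edgeR 4.0.16 (R 4.3.3) fitted 1 quasi-likelihood model to the counts of the 12 libraries, with group coefficients. P-values are two-sided, Benjamini-Hochberg adjusted over the tested genes, and called under 0.05. The SE of a log2 fold change is its absolute value divided by the square root of the test's F statistic. It was thus derived from the test and is not a spread measured between libraries. The fit was repeated without W control replicate 2, and the interaction with material was tested in the same model. For correlations and components, CPM were put on a log2 scale with 2 as the prior count. Fold bounds of genes at 0 counts used a floor of 3 counts over the group.

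The part of the series described, its rules and its lists were chosen with earlier results of these data known. Genes named were those past the threshold, and the first 2 in each direction of 3 orders: by fold change among genes at an unadjusted p under 0.01 and a mean of at least 5 CPM without overlap, the same without control replicate 2, and by p at that mean. The 45 gene lists, by product description, markers of root cell types among them, had no members because 0 identifiers matched. DESeq2 1.42.0, limma 3.58.1, other scalings and filters, a replicate block and leaving out each library were the alternatives. The procedure was tested on simulated counts. These held neither a control lying apart nor a trend with gene length, so that test does not cover these features of the data. Figures used matplotlib 3.10.9.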

Additional observations from a re-analysis of the deposited data

Results flagged for a closer look

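One result met the conditions for a closer look. The response of Glyma.12G172300 to 50 µM MnSO4 differed between the materials by a test of the difference itself, the OX3 value less the W value being -2.51 on the log2 scale (SE 0.27) and an edgeR adjusted p of 0.0293. Its level was higher at 50 µM in 3 of 3 W libraries and lower at 50 µM in 3 of 3 OX3 libraries, each set against all controls of its material, and the OX3 response alone was -0.42 with an adjusted p of 0.319. The cause was not tested.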

How the results depend on the processing

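With all W controls, edgeR's count of 1 gene past the adjusted threshold was also 1 with RLE or upper-quartile scaling, without a filter, with a stricter one, in limma-voom with and without sample weights, in the robust and newer forms of edgeR, on log2 FPKM + 0.1, with the length trend removed and in the fit of the 2 W groups alone, where the gene was another one, Glyma.02G005800. It was 2 on log2 FPKM + 1, 1616 in DESeq2 and 0 with a replicate block, in which Glyma.12G172300 had an adjusted p of 0.181. Leaving out 1 library gave 0 to 9 genes, the 9 (3 higher, 6 lower) without OX3 replicate 4 at 50 µM, which enters through the shared spread. At an unadjusted p under 0.05, the higher genes numbered 1724 to 2932 and the lower genes 1916 to 3349 without 1 library. The lowest values came without replicate 3 at 50 µM, and the higher genes were 1734 without control replicate 3. Without control replicate 2 the count of 0 became 584 in DESeq2 and 1 in limma-voom with sample weights. Leaving out a further library gave 637 to 2731 higher and 621 to 2555 lower genes, the fewest without control replicate 3, which leaves control replicate 4 as the lone W control, assumed to vary like the other groups. For the interaction the count of 1 became 0 without a filter, 72 in DESeq2, 0 with a replicate block (adjusted p 0.549 for Glyma.12G172300) and 0 without any one library. The cause of these differences was not tested. On log2 FPKM the share of higher genes at an unadjusted p under 0.05 was 34.9% with a pseudocount of 0.1 and 35.3% with 1, against 45.5%, and with 0.1 the median log2 fold change of all genes was -0.12. No direction reversed among the 9 genes plotted by library in the alternatives computed for them, which were all but those without an OX3 library. The leading 24 kept their sign in every alternative. They were chosen for W groups without overlap, so their sign could hardly change. In limma-voom, however, 6 of the 12 leading higher genes had an unadjusted p under 0.05, and 4 with sample weights. DESeq2 called 9 of the 12 higher and 11 of the 12 lower. The lower gene not called was the leading one, Glyma.10G047100, to which DESeq2 gave no adjusted p. Replicate numbers 2 and 3 are shared by the W groups without a stated meaning, and deviations of these pairs correlated at 0.0031 and 0.274 across genes, so the numbers were not taken as pairs. No replicate block was fitted without control replicate 2, where the W groups shared only the number 3. The depth limits genes under 1 CPM, where few counts lie behind a level.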

Other observations

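Glyma.02G005800, of 2249 bp on chromosome 2 and chosen after its values were seen, was the gene past the threshold in a fit of the 2 W groups alone, at an edgeR adjusted p of 0.0294. It had 38.8, 53 and 68.1 CPM in W roots at 50 µM, against 2.42, 1.85 and 3.2 CPM in W roots at 5 µM. The controls lay close together and far below the libraries at 50 µM, with 53.3 ± 14.7 CPM at 50 µM and 2.49 ± 0.676 CPM at 5 µM (SD, n = 3 each). In the model of all 12 libraries its log2 fold change was 4.41 (SE 1.08) and its adjusted p 0.162, and the fold change was 4.39 (SE 1.34) without control replicate 2. In OX3 it had 15.8, 54.2 and 1.06 CPM at 50 µM, against 1.24, 2.7 and 8.56 CPM at 5 µM, where replicate 4 at 50 µM was the lowest of the 6 libraries and control replicate 4 the highest control.

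The gene Glyma.08G341400, also chosen after its values were seen, was among the 20 most abundant genes and had nearly the same level in the libraries at 50 µM, with 1360, 1401 and 1353 CPM, against 3101, 4700 and 2130 CPM in W roots at 5 µM. Its log2 fold change of -1.27 had an unadjusted p of 0.0629 in edgeR's test, although the groups did not overlap.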
